A study of Mus musculus with 19 samples.

Results

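The cytosolic ribosomal protein genes were followed through the CA1 region of the mouse hippocampus in ageing and after inhibition of 3 microRNAs. They were chosen by name, as protein-coding genes whose symbol follows the Rpl, Rps, Rplp or Rpsa pattern, and by a minimum of 5 reads in at least 50% of the libraries. Of 80 protein-coding genes with such a name 78 passed, 47 of the large and 31 of the small subunit, among 19286 genes tested. The paralogues Rpl10l, with a mean of 0.05 reads per library, and Rpl39l, with a mean of 2.21 reads, did not pass, and Rps4l was not among the protein-coding genes of the annotation used.

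All mice were male C57B/6J. The young group (3 months, n = 6) and the old control group (16.5 months, n = 6) had received control oligonucleotides, and the old anti-miR-mix group (16.5 months, n = 7) had received inhibitors of miR-148a-3p, of miR-181a-5p and of miR-146a-5p, in each case in lipid nanoparticles injected into the dorsal hippocampus on both sides. CA1 was then dissected and polyadenylated RNA was sequenced as 50-base single-end reads. No young mouse received the inhibitors, and the tissue holds neurons, glia and vessels together, so that fewer cells of a type and less RNA per cell cannot be told apart. Each library was treated as 1 sample, and the p-values measure the spread between these libraries.

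A cytosolic ribosome is built from ribosomal RNA and one copy of most ribosomal proteins, divided between the large subunit, which forms peptide bonds, and the small subunit, which decodes the message. Messages of these proteins typically begin with a cytosine followed by a tract of pyrimidines, the 5′ terminal oligopyrimidine (TOP) motif, through which the mTOR kinase and the protein LARP1 control their translation. In neurons this translation takes place in the cell body and in dendrites, and protein synthesis is needed for lasting memory. Ribosomal protein genes also have many processed pseudogenes, copies of their spliced message put back into the genome.

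Pyrimidine tracts were looked for near the annotated starts of these genes. Promoters from RefSeq (GRCm38.p6) matched 58 of the 78 genes with 70 listed starts. Of these 70 starts, 60.0% had a cytosine followed by at least 5 pyrimidines beginning within 20 bases of the start, against 31.4% of all 32851 listed starts. A cytosine at the start itself followed by at least 4 pyrimidines was found at 18.6% of the members' starts and 2.5% of all. On either strand of the 300 bases around the start, the letters CCGGAAG stood in 35.7% of the members' promoters (14.3% of those of tested genes, 8.9% of all), AAGATGG in 15.7% (6.5% and 6.3%) and TATAAA in 8.6% (8.0% and 13.6%). The 6 windows below run from 30 bases before the annotated start to 20 bases after it, with the tract nearest to the start in capitals, and belong to 6 of the genes with the lowest p-values in the comparisons further on.
Rplp2, chr7:141447621-141447670, plus strand: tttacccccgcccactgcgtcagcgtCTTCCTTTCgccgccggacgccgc
Rpl35a, chr16:33056452-33056501, plus strand: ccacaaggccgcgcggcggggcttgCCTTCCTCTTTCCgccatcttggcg
Rpl4, chr9:64173357-64173406, plus strand: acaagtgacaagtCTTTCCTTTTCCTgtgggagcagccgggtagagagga
Rps26, chr10:128626487-128626536, minus strand: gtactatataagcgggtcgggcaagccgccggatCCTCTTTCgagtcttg
Rps15, chr10:80292401-80292450, plus strand: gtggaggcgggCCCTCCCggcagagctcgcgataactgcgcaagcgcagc
Rps23, chr13:90923092-90923141, plus strand: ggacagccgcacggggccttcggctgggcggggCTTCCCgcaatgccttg
The tract spans the annotated start in Rplp2 and Rpl35a. In Rpl4 and Rps15 it lies wholly before the annotated start, outside the annotated message, and in Rps26 and Rps23 it begins at bases 5 and 4 of the message. These matches are descriptions of letters, and the start at which transcription began in these mice was not measured.

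The 3 microRNAs bind messages mainly through their seed, bases 2 to 8 counted from the 5′ end, which is given in capitals in the RefSeq mature sequences.
miR-146a-5p: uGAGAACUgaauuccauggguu
miR-148a-3p: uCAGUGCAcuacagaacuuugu
miR-181a-5p: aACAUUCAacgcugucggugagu
The 3 seeds differ from each other. The 3′ untranslated regions of the 78 genes were short, with a median of 64.5 bases against 903 bases over 15146 tested protein-coding genes. A match to miR-146a-5p stood in 2 of the 78 genes (2.6%, against 10.3% of all), one to miR-148a-3p in 2 (2.6% against 12.8%) and one to miR-181a-5p in 3 (3.8% against 15.6%). Per kilobase the members had 0.094, 0.094 and 0.141 matches and all genes 0.085, 0.107 and 0.144. The genes with a match were Rpl10 and Rps15a for miR-146a-5p, Rps20 and Rps24 for miR-148a-3p, and Rps20, Rps24 and Rpl5 for miR-181a-5p. The annotated main transcripts of Rps15a, Rps20, Rpl5 and Rps24 are long, with 5130, 3706, 2045 and 1613 bases. The longest 3′ untranslated region of a member had 4722 bases. Whether the messages in CA1 carry these long ends was not tested, and the matches and the rates per kilobase rest on the annotation.

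The 19 libraries held 26653511 to 38908947 reads assigned to genes. Old control replicates 5 and 6 were closer to each other than any other pair of libraries of one group, with a chi-square of 1.89 per degree of freedom against 4.82 or more in the other pairs, and they were also fitted as 1 library. The deposited log2 values differ from log2 CPM of the counts by a term for each gene, in proportion to a number of each library. This number, 1 to 4 after scaling, was read from that difference and not from a sample label. It is called the processing group here, and what it stands for was not tested. Group 3 holds no old control library. All 7 pan-neuronal and all 5 CA1 pyramidal markers were tested, and 1 of each list was called lower in treated old than in young mice. Over all tested genes 2.67% were called with age, 0.669% with treatment and 6.2% between treated old and young mice (edgeR). Of 8 microglial markers 1 was called higher with age, 3 with treatment and 7 in treated old against young mice, and their summed level was 386 to 518 CPM (read counts scaled by library size) in young, 481 to 603 in old control and 575 to 795 in old anti-miR-mix mice. Of 6 oligodendrocyte markers 4 were called lower in old control than in young mice, at 6024 to 7284 against 6961 to 10782 CPM. Old anti-miR-mix mice had 6148 to 9281 CPM, with 0 of the 6 called against young or old control mice. Summed astrocyte markers were 2238 to 2625, 2534 to 2924 and 2630 to 3416 CPM. The part of these cells in the values below was not tested.

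Ribosomal protein messages took a small part of the reads, and few genes held most of it. Between 65126 and 99483 reads per library fell on the 78 genes, 0.234% to 0.274% of all assigned reads. Rpl4, a large subunit protein that lines the exit tunnel of the nascent chain, alone held 14.4% of them with a mean of 11452 reads, and 5 genes held 38.8%. The paralogue Rpl3l had the lowest mean, 11.8 reads, and among the genes with few reads were also Rpl24 with a mean of 19.9, Rps29 with 22.8, Rpl19 with 28.8 and Rps23 with 39.3. Per kilobase of main transcript the highest mean levels were those of Rplp1 of the ribosomal stalk (243 CPM per kilobase), Rpl4 (236) and Rps15 (217), and the lowest those of Rpl3l (0.27), Rpl24 (0.937) and Rpsa (0.983). Whether these unequal levels reflect the messages or the assignment of reads was not tested.

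Genes with more sequence of their own tended to have higher levels. Every 50-base window of a gene's main transcript was looked up in all other annotated transcripts on both strands. A median of 45% of the windows were found in no other gene, from 1.35% in Rps27 to 100% in Rpl3l, and 76 of the 78 genes shared windows with at least 1 pseudogene. Spearman's rho between the share of such windows and CPM per kilobase was 0.45 across the 78 genes, and 0.47 within each subunit. The genes are not independent and come from the same libraries, and no p-value is given. The 17 genes with under 20% of such windows had a median of 6.09 CPM per kilobase and held 4.03% of the members' reads, and the 6 genes with 90% and over had a median of 60.5 CPM per kilobase and held 24.2%. Rpl3, which lies near the peptidyl transferase centre, had 14.4% such windows and 17.5 CPM per kilobase, Rps6, the target of S6 kinases, 15.4% and 2.03, and Rps3, at the entry of the message, 97.0% and 104. The part of shared sequence in these levels was not tested. The 269 annotated pseudogenes named after these genes took few reads, with 0.53 to 0.68 reads per 100 reads on the members. They belong to 58 of the members, and pseudogenes with other names were not counted. Reads that match several genes may not have been assigned, so these counts cannot show the part of pseudogenes in the levels.

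**Figure D1:**
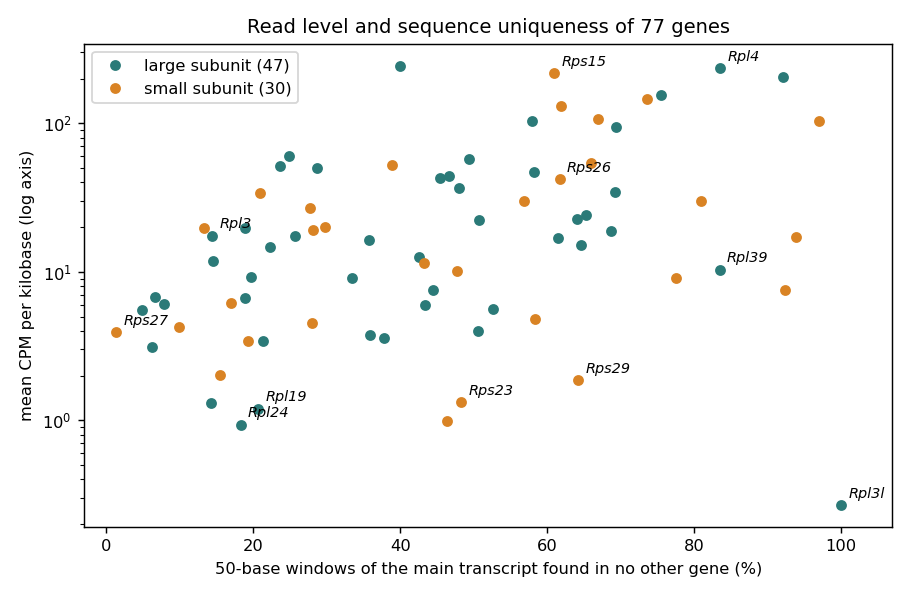
Mean level in CPM per kilobase of main transcript over 19 libraries (log axis) against the percent of 50-base windows found in no other gene, 1 point for each of 77 of the 78 genes, coloured by subunit. Rps27 lies at 1.35% and 3.91 CPM per kilobase, and Rpl3l, at 100% and 0.27, lies far below the other genes with many such windows.

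Paralogues of ribosomal proteins that are known from single tissues were scarce in CA1. Rpl3l, the striated-muscle counterpart of Rpl3, had 4 to 18 reads per library, against 570 to 980 for Rpl3. Rpl10l, a counterpart of Rpl10 known from testis, had 1 read in 1 of the 19 libraries. Rps27l, a target of p53 that can take the place of Rps27, had 104 to 213 reads, more than Rps27 itself with 22 to 63. Over their 255 coding bases the pair was 76.1% identical, with 61 differing bases and no identical run longer than 11 bases. Coding bases 91 to 180 are shown because they make plain that 50-base reads can separate the pair, with differing bases in capitals.
Rps27: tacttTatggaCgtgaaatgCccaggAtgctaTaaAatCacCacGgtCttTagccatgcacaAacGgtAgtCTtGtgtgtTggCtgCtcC
Rps27l: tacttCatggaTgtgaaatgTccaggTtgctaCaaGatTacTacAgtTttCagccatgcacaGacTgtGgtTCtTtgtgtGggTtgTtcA
No 50-base stretch of coding sequence is the same in the pair. In Rps27, 1.35% of the windows were found in no other gene, against 77.6% in Rps27l. Rps27 shared windows with 9 other genes, 8 of them pseudogenes, and the part of this in its lower count was not tested.

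The share of reads on the 78 genes overlapped between the groups. It was 0.236% to 0.257% in young (mean 0.246% ± 0.0075, SD, n = 6), 0.234% to 0.259% in old control (0.2498% ± 0.0095, n = 6) and 0.246% to 0.274% in old anti-miR-mix mice (0.259% ± 0.0106, n = 7). The 2 highest libraries of the 19 were old anti-miR-mix replicates 1 and 4 (0.274% and 0.272%). The large subunit took 0.142% ± 0.0038, 0.144% ± 0.0045 and 0.149% ± 0.0053 of reads in the 3 groups, and the small subunit 0.105% ± 0.0039, 0.106% ± 0.0052 and 0.110% ± 0.0054. Reads on the large subunit were 1.35 ± 0.026, 1.36 ± 0.031 and 1.35 ± 0.024 times those on the small subunit, so that the balance of the subunits differed between groups by less than the spread within them. Within processing groups the mean share of old control mice exceeded that of young mice by 0.01, 0.0007 and 0.0058 percentage points (groups 1, 2 and 4) and that of old anti-miR-mix mice exceeded that of old control mice by 0.0274, 0.0056 and 0.0006 points, with 1 or 2 libraries of a group in each. The median deviation of the 78 genes from their own mean log2 CPM was not as uniform. It was higher in old control than young mice by 0.0692 and 0.0664 in groups 1 and 4 and differed by −0.0195 in group 2, and it differed between old anti-miR-mix and old control mice by 0.1399, −0.015 and −0.0109 in groups 1, 2 and 4. Between old anti-miR-mix and young mice it differed by 0.2091, −0.0345, 0.0447 and 0.0555 in groups 1 to 4.

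**Figure D2:**
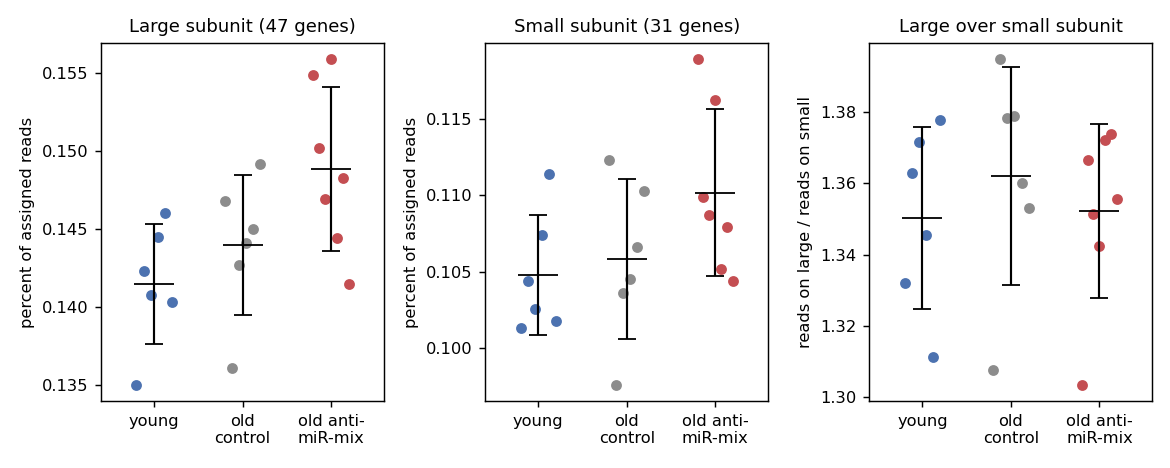
Percent of assigned reads on the 47 large subunit genes (left) and the 31 small subunit genes (middle), and the ratio of the former to the latter (right), with 1 point per library and the mean ± SD of each group. The groups overlap in all 3 panels, and the ratio lies between 1.30 and 1.40 in all 19 libraries.

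Old control mice were compared with young mice to ask whether ageing changes these messages in CA1. No ribosomal protein gene was called, with 0 of 78 at an adjusted p under 0.05 in edgeR's quasi-likelihood test, where 2.67% of all tested genes were called, and 0 in DESeq2 (4.74% of all). At an unadjusted p under 0.05 there were 6 (18.1% of all), 4 of them with higher values in old control mice. This number was 3 with old control replicates 5 and 6 as 1 library, and over the fits that left out 1 library it ran from 4 (without young replicate 1, 3 or 6 or old control replicate 5 or 6) to 10 (without young replicate 2). For no member did the groups fail to overlap (2.54% of all). The median log2 fold change was 0.031, beside 0.006 over all tested genes, and 69.2% of the members had a positive value, beside 52.2% of all. Among 931 other protein-coding genes with a main transcript under 1 kilobase the median was 0.014 and 54.1% were positive. The median was 0.030 for the large and 0.044 for the small subunit. It was 0.058 with processing group as a term, and over the fits that left out 1 library it ran from 0.019 without old control replicate 1 or young replicate 6 to 0.049 without old control replicate 3, 0.057 without old control replicate 2 and 0.066 without young replicate 4.

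The members with the lowest p-values had fold changes of either sign, and none passed the test. Rps23, a small subunit protein of the decoding centre, had a log2 CPM of 0.18 to 0.75 (median 0.45) in young and −0.37 to 0.27 (median 0.14) in old control mice. The groups overlapped, and old control replicates 2 and 3, with 20 reads each, were the lowest of all 19 libraries. The log2 fold change was −0.43 ± 0.15 (SE), which is 0.74-fold (95% interval 0.60 to 0.92), with an adjusted p of 0.120 in edgeR. Rps15, which lies at the head of the small subunit, had a log2 CPM of 6.43 to 6.79 (median 6.71) in young and 6.72 to 6.95 (median 6.84) in old control mice, with young replicate 1 lowest. Its log2 fold change was 0.15 ± 0.053 (adjusted p = 0.144, edgeR). Rpl21 had a log2 fold change of 0.19 ± 0.082 (adjusted p = 0.221, edgeR). Rps27l had one of −0.23 ± 0.099 (adjusted p = 0.223, edgeR), from a log2 CPM of 2.29 ± 0.13 (SD, n = 6) in young to 2.06 ± 0.14 (n = 6) in old control mice, while Rps27 had a value of 0.26 ± 0.16 (adjusted p = 0.43, edgeR).

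Old anti-miR-mix mice were compared with old control mice to ask what the inhibitors change. Again 0 of 78 genes were called in edgeR, where 0.669% of all genes were, and 0 in DESeq2 (1.38% of all). At an unadjusted p under 0.05 there were 2 (10.5% of all). This number was 6 with library totals only, 0 with a minimum of 50 reads, which left Rps23 and Rps29 untested, and 2 to 5 over the fits that left out 1 library, with 5 without old anti-miR-mix replicate 7 and 4 without old control replicate 1 or 6. For no member did the groups fail to overlap (0.498% of all). The median log2 fold change was 0.030, beside 0.0004 over all tested genes, with 65.4% of the members and 50.2% of all genes positive. Other protein-coding genes with a main transcript under 1 kilobase had a median of 0.025, with 61.4% positive. The median was 0.017 for the large and 0.038 for the small subunit. Without old anti-miR-mix replicate 1 the median of the members was 0.001, and it was 0.013, 0.016 and 0.016 without old control replicates 2, 3 and 4.

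The pair of genes with an unadjusted p under 0.05 were small subunit genes with few reads. Rps23 had a log2 CPM of 0.09 to 0.75 (median 0.59) in old anti-miR-mix mice, from 39 to 54 reads, against −0.37 to 0.27 in old control mice, from 20 to 43 reads. Only old anti-miR-mix replicate 3 lay within the range of the old control libraries. The log2 fold change was 0.53 ± 0.14, which is 1.44-fold (95% interval 1.17 to 1.77), with an adjusted p of 0.104 in edgeR and of 0.0617 to 0.25 over the alternatives in which it was tested, which leave out the minimum of 50 reads. Rps29, a zinc-binding protein of the small subunit, had −0.99 to −0.22 (median −0.67) in old anti-miR-mix and −0.44 to 0.02 (median −0.11) in old control mice, from 13 to 24 and 19 to 36 reads. Its log2 fold change was −0.50 ± 0.16, which is 0.71-fold (0.56 to 0.89), with an adjusted p of 0.206 in edgeR. Rps29 was thus lower where Rps23 was higher, and neither passed the adjusted threshold. Next by p-value were Rpl35a (0.09 ± 0.048, adjusted p = 0.526, edgeR) and Rps20 (0.07 ± 0.038, adjusted p = 0.539, edgeR).

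The 5 genes with a seed match showed no call in this comparison. Rps20 and Rps24, with a match to miR-148a-3p and miR-181a-5p each, had log2 fold changes of 0.07 ± 0.038 and 0.04 ± 0.096. Rpl5, which joins Rpl11 and 5S ribosomal RNA in the particle that binds Mdm2, had −0.06 ± 0.082, Rpl10, which joins the large subunit last, −0.06 ± 0.092, and Rps15a −0.02 ± 0.041. The 95% interval was −0.01 to 0.15 for Rps20 and −0.23 to 0.11 for Rpl5.

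Old anti-miR-mix mice were also compared with young mice, which combines age and treatment and shares its libraries with the other comparisons. In edgeR 0 of 78 genes were called, where 6.2% of all genes were. DESeq2 called 2, Rps26 and Rpl4, both higher in old anti-miR-mix mice (7.88% of all). At an unadjusted p under 0.05 there were 16 (19.6% of all), 15 of them with higher values in old anti-miR-mix mice. The count of 16 fell to 4, 5 and 8 without young replicates 6, 1 and 3, and to 7, 9 and 10 without old anti-miR-mix replicates 1, 2 and 6. It rose to 19 without old anti-miR-mix replicate 5, and to 18 without old control replicate 6 or with a minimum of 50 reads. For no member did the groups fail to overlap (2.42% of all). The median log2 fold change was 0.057, beside 0.003 over all tested genes, with 78.2% of the members and 51.0% of all genes positive. It was 0.031 without old anti-miR-mix replicate 1 and 0.032 without young replicate 6. It was 0.049 for the large and 0.059 for the small subunit. Among the 931 other genes with a short main transcript the median was 0.036 and 63.1% were positive.

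Rps26, a small subunit protein beside the exit of the message, had a log2 CPM of 4.48 to 4.87 (median 4.74) in young, 4.73 to 4.91 (median 4.84) in old control and 4.80 to 5.08 (median 4.88) in old anti-miR-mix mice. The groups overlapped, and young replicate 1 was the lowest library. The log2 fold change against young mice was 0.19 ± 0.057, which is 1.14-fold (95% interval 1.05 to 1.24), with an adjusted p of 0.0529 in edgeR, of 0.0357 in DESeq2, and of 0.0348 to 0.117 over all alternatives. Rpl4 had 8.37 to 8.53 (median 8.46) in young, 8.46 to 8.53 (median 8.51) in old control and 8.48 to 8.59 (median 8.55) in old anti-miR-mix mice, the smallest spread among the 78 genes (pooled SD of 0.041). Its log2 fold change was 0.08 ± 0.03, which is 1.06-fold (1.01 to 1.11), with an adjusted p of 0.109 in edgeR and 0.0391 in DESeq2. Rpl35a followed with 0.12 ± 0.048 (adjusted p = 0.163, edgeR) and Rplp2 with 0.14 ± 0.057 (adjusted p = 0.182, edgeR).

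**Figure D3:**
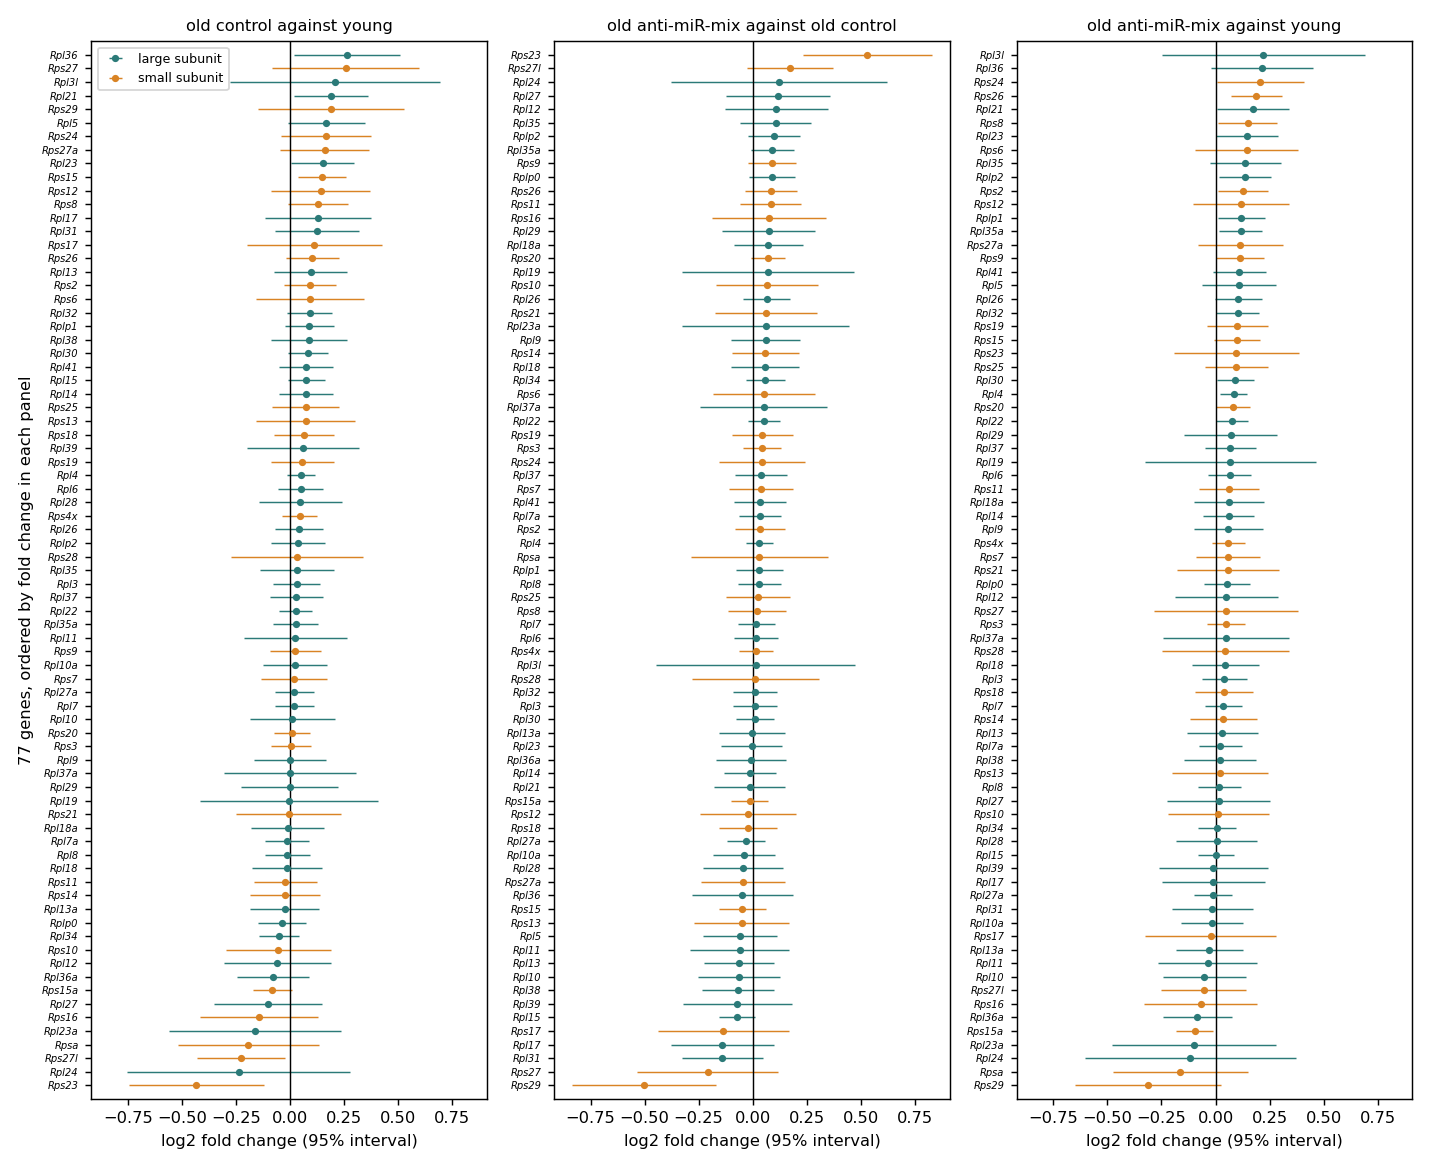
Log2 fold change with its 95% interval for each of 77 of the 78 genes in the 3 comparisons, ordered by value in each panel and coloured by subunit. Most points lie within 0.25 of 0 and the widest intervals belong to genes with few reads, such as Rps23, Rps29, Rpl24 and Rpl3l.

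The intervals give a range for the change of each gene, taken 1 gene at a time and for assigned reads only. In the age comparison the 95% interval lay within 0.25 of 0 on the log2 scale for 45 of 78 genes and within 0.5 for 70. In the treatment comparison these numbers were 51 and 74, and in the comparison of treated old with young mice 47 and 75. All 78 lay within 1 in each comparison. For the 62 genes with a mean of at least 100 reads all intervals lay within 0.5, and the estimates ran from −0.23 to 0.19 with age, from −0.14 to 0.17 with treatment and from −0.10 to 0.21 between treated old and young mice. The pooled SD of log2 CPM within groups had a median of 0.12 over these 62 genes and of 0.242 over the 16 genes with fewer reads, and was widest in Rpl24 (0.422), Rpl3l (0.359) and Rpl19 (0.323).

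**Figure D4:**
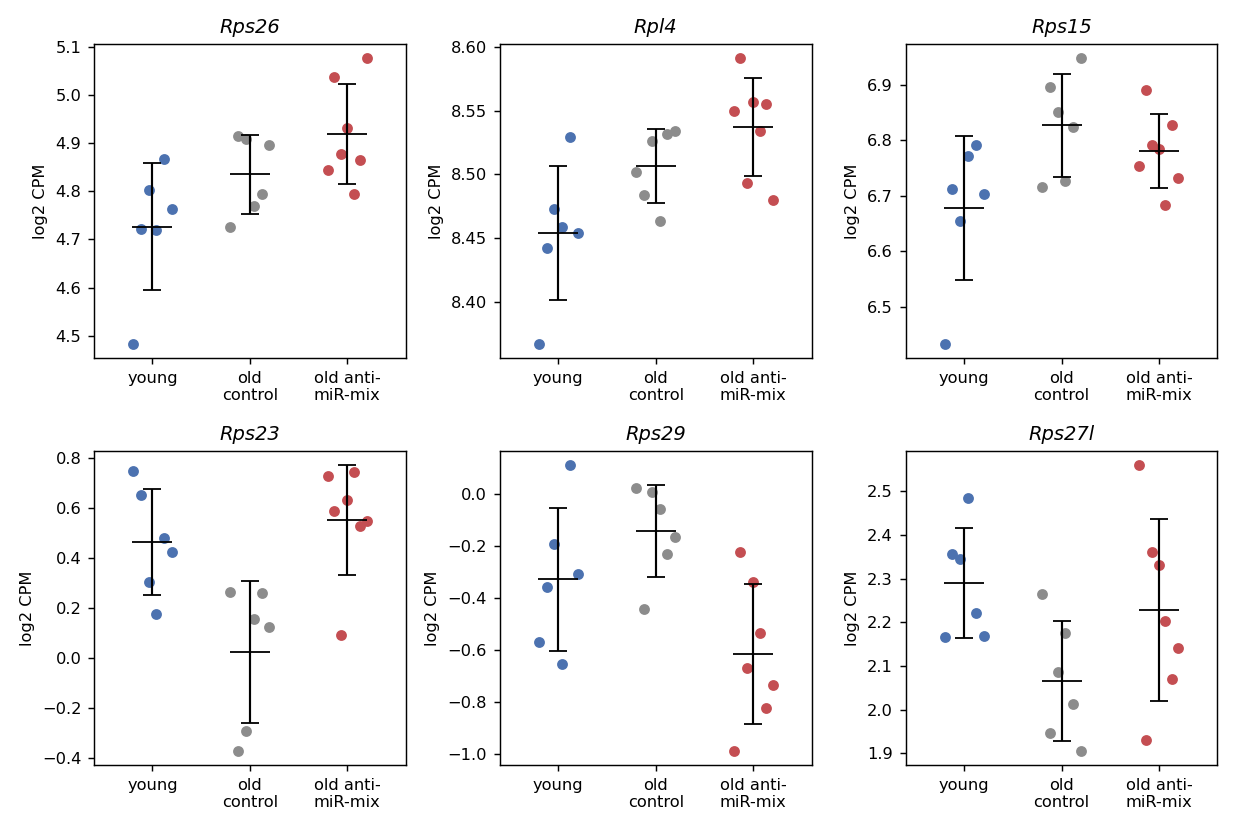
Log2 CPM of 6 genes in each library by group, with the mean ± SD. Rps26 and Rpl4 have their lowest value in a young library, Rps23 is lower in most old control libraries, Rps29 is lowest in old anti-miR-mix libraries, and the groups overlap in all 6 panels.

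The acidic stalk of the large subunit, which recruits translation factors, is made of Rplp0, Rplp1 and Rplp2. Rplp0 had a log2 CPM of 5.98 ± 0.11 in young, 5.94 ± 0.071 in old control and 6.03 ± 0.11 in old anti-miR-mix mice. Rplp1 had 6.85 ± 0.098, 6.94 ± 0.12 and 6.97 ± 0.083, and Rplp2 had 4.99 ± 0.15, 5.03 ± 0.076 and 5.13 ± 0.090. The log2 fold changes with treatment were 0.09 ± 0.051, 0.03 ± 0.052 and 0.10 ± 0.057, with adjusted p of 0.566, 0.899 and 0.574 (edgeR). None of the 3 stalk genes passed in any comparison.

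Other large subunit genes with functions outside the core of the ribosome also did not pass. Rpl11, the partner of Rpl5, had log2 fold changes of 0.03 ± 0.11 with age and −0.06 ± 0.11 with treatment. Rpl13a, known for its release from the ribosome in inflammation, had −0.02 ± 0.077 and −0.004 ± 0.074. Rpl22, which has a paralogue in Rpl22l1, had 0.03 ± 0.037 and 0.05 ± 0.035, and Rpl38, needed for the translation of Hox messages in embryos, 0.09 ± 0.084 and −0.07 ± 0.081. The smallest proteins of the large subunit are encoded by Rpl39 and Rpl41, with values of 0.06 ± 0.12 and 0.08 ± 0.06 for age and −0.07 ± 0.12 and 0.03 ± 0.058 for treatment. Rpl24 had −0.24 ± 0.25 and 0.12 ± 0.24, and Rpl3 0.03 ± 0.052 and 0.01 ± 0.05.

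In the small subunit, Rps6 had log2 fold changes of 0.09 ± 0.12 with age and 0.05 ± 0.11 with treatment. Rps14 and Rps19, the genes lost or mutated in inherited and acquired anaemias, had −0.02 ± 0.077 and 0.06 ± 0.07 with age and 0.06 ± 0.074 and 0.04 ± 0.067 with treatment. Rps27a, made as a fusion with ubiquitin, had 0.16 ± 0.098 and −0.05 ± 0.094, and Rps25, which serves internal ribosome entry, 0.07 ± 0.074 and 0.02 ± 0.071. The X-linked Rps4x had 0.04 ± 0.038 and 0.02 ± 0.037, Rps3 0.005 ± 0.044 and 0.04 ± 0.043, and Rpsa, which is also known as a laminin receptor, −0.19 ± 0.16 and 0.03 ± 0.15. The difference between the median log2 fold changes of large and small subunit genes was −0.014 with age, −0.021 with treatment and −0.009 between treated old and young mice. Over the fits that left out 1 library it ran from −0.031 to 0.017, from −0.045 to −0.003 and from −0.029 to 0.001. Its sign turned with single libraries for age and between treated old and young mice, but not for treatment. With age it was 0.006 without young replicate 3, 0.001 without young replicate 4, 0.017 without old control replicate 1 and 0.011 without old control replicate 3, and between treated old and young mice it was 0.001 without young replicate 4.

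Genes that make, feed or control the ribosome were read beside these. Of 7 ribosomal proteins that the naming pattern misses (among them Fau, Rps3a1, Rack1, Rpl22l1, Rpl36al and Rpl7l1) 0 were called in edgeR in each comparison, with 1 at an unadjusted p under 0.05 for age and 0 for the others, and 0 by DESeq2. A list of 17 genes known for TOP messages held translation factors and other genes, and the motif was not looked for in this list. Of these 17 genes 1 was called in edgeR, the poly(A)-binding protein gene Pabpc1, beside 6.2% of all genes. It was higher in treated old than in young mice (log2 CPM 6.59 ± 0.10, n = 7, against 6.44 ± 0.073, n = 6, log2 fold change 0.15 ± 0.046, adjusted p = 0.0472, edgeR). DESeq2 called 1 of the 17 in this comparison (7.88% of all genes) and 1 with age (4.74%). The median of these 17 genes was 0.034 with age, 0.017 with treatment and 0.040 between treated old and young mice. Of 11 tested RNA polymerase I genes, which make ribosomal RNA, 1 was called in the same comparison, where 6.2% of all genes were. Rrn3, its initiation factor, was lower in treated old than in young mice (5.91 ± 0.052 against 6.03 ± 0.033, log2 fold change −0.12 ± 0.029, adjusted p = 0.0151, edgeR). Its values against old control were −0.06 ± 0.029 (adjusted p = 0.506, edgeR). The median of the 11 genes was 0.0007, −0.030 and −0.017 in the 3 comparisons.

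Of 32 ribosome biogenesis genes, of 17 genes of the mTOR pathway and its TOP regulators and of 77 mitochondrial ribosomal protein genes 0 were called in each comparison in edgeR and 0 in DESeq2, with 1 to 5 genes a list at an unadjusted p under 0.05. Their medians were −0.003, −0.001 and −0.002 with age, −0.032, −0.026 and −0.011 with treatment, and −0.020, −0.028 and −0.007 between treated old and young mice. Those of the cytosolic ribosomal protein genes were above 0 in each. So were those of the 7 ribosomal proteins outside the naming pattern (0.037, 0.025 and 0.064) and of the genes known for TOP messages. The other genes with a short main transcript also had medians above 0 (0.014, 0.025 and 0.036). The elongation factor gene Eef1a2 and the elongation factor 2 kinase gene Eef2k were not called in any comparison in edgeR or DESeq2. Of the pair, 1 had an unadjusted p under 0.05 (edgeR) between treated old and young mice. Of 88 nuclear genes of oxidative phosphorylation 1 was called, Atp5g1, a ring subunit of ATP synthase, which was lower in old control (4.09 ± 0.037) than in young mice (4.31 ± 0.093, log2 fold change −0.22 ± 0.052, adjusted p = 0.0289, edgeR) and lower in treated old than in young mice (−0.24 ± 0.05, adjusted p = 0.00426, edgeR). Over all genes 2.67% and 6.2% were called in these comparisons.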

How the data were processed

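Polyadenylated RNA of 19 CA1 samples was sequenced after TruSeq v2 library preparation. Per the labels and the methods, the authors checked reads with FastQC 0.11.5, aligned them to mm10 with STAR 2.5.2b and counted them per gene with featureCounts (Subread 1.5.1). The deposited files of each library hold raw read counts per Ensembl gene. Settings for strand and for reads with several matches are not given in the sources used here. A table of log2 values was also deposited and served only to read the number called the processing group. It differed from log2 CPM of the counts by a term in proportion to that number (largest difference 3.4e-08 after the term was put back). The sample labels do not give this number. No per-sample column was left without a sample (0).

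Symbols, types and lengths came from GENCODE M21 (GRCm38), which matched 48349 of 48709 IDs. Genes with at least 5 reads in 50% of libraries were tested with edgeR 4.0.16 in R 4.3.3 (TMM factors, quasi-likelihood test, 3 group means, Benjamini-Hochberg adjustment over 19286 genes). Log2 CPM used a prior count of 2, and log2 fold changes are group differences from the fit. Levels per kilobase used library totals and the length of 1 main transcript per gene. DESeq2 1.42.0, other normalizations and filters, processing group, a replicate block, leaving out each library, old control 5 and 6 as 1 library, and pseudogene reads added to their parent were alternatives. The code was tested on simulated counts. Genes were named by a rule: members past the threshold, the 4 with the lowest p-value in each comparison, a list of members with known roles, paralogues, the 3 highest and 3 lowest per kilobase, the 3 widest in spread, and called genes of the pathway lists. Rps24 and Rps15a fall outside it and were named for their sequence. Genes named only to describe a list, such as Fau, Rack1, Eef1a2 and Eef2k, also fall outside it. Some genes are counted but not reported by name here, and 1 is left out of the plots of single genes. Members, lists and the motifs searched were chosen with earlier results of these data known.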

Additional observations from a re-analysis of the deposited data

Results flagged for a closer look

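Of 108 sets of group values examined (the share of reads, the median deviation, the subunit ratio and the log2 CPM of 33 named genes in 3 groups) 5 held a library whose gap to the nearest other library of its group, as a part of the group's range, was above Dixon's 95% critical value. Chance flags about 1 in 20 such sets. Rpl35a was at 4.18 log2 CPM in young replicate 1, where the others lay at 4.33 to 4.41. Rpl3l was at −2.22 in old control replicate 3, from 4 reads, where the others lay at −1.29 to −0.84. Old control replicate 6 was high for 2 stalk genes, with Rplp1 at 7.16 (others 6.85 to 6.95) and Rplp2 at 5.17 (others 4.96 to 5.04). Rps23 was at 0.093 in old anti-miR-mix replicate 3, where the others lay at 0.53 to 0.75.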

How the results depend on the processing

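The count of ribosomal protein genes called stayed at 0 for age and for treatment under every alternative run. For treated old against young mice it was 0 to 1 over the fits that left out 1 library, 2 with DESeq2, 1 with library totals only and 1 with a minimum of 50 reads. Rps26 was the gene called in each of these, with Rpl4 beside it in DESeq2, and its log2 fold change was 0.18 (adjusted p = 0.0357) in DESeq2, 0.20 (0.0436) with library totals only, 0.20 (0.0409) with 50 reads, 0.21 (0.0369) without young replicate 5, 0.20 (0.0445) without old anti-miR-mix replicate 1 and 0.21 (0.0348) without old anti-miR-mix replicate 5. The value for Rpl4 in DESeq2 was 0.08 (adjusted p = 0.0391). The cause was not tested.

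The median of the members was above 0 in each comparison under every alternative run, from 0.017 with library totals only to 0.066 for age, from 0.001 to 0.051 for treatment and from 0.031 to 0.079 for treated old against young mice. Single libraries moved it by much of its size. For treatment it fell from 0.030 to 0.001 without old anti-miR-mix replicate 1, and for age it rose from 0.031 to 0.066 without young replicate 4. With old control replicates 5 and 6 as 1 library it was 0.025, 0.037 and 0.057, and with pseudogene reads added 0.030, 0.030 and 0.058. Leaving out 1 library gave mean shares of reads of 0.2441% to 0.2483% in young, 0.2479% to 0.253% in old control and 0.2566% to 0.2613% in old anti-miR-mix mice.

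Correlations of same-numbered libraries ran from −0.461 to 0.444, so that the numbers did not pair the samples. With the replicate block the counts were 0, 0 and 0 and the medians 0.028, 0.031 and 0.072, against 0.031, 0.030 and 0.076 in the same 18 libraries without it, an alternative chosen after seeing the data. The spread within groups was wider for genes with few reads, and the part of depth in it was not tested.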
